A study of Mus musculus with 234 samples.

Results

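The genes described here are the 7 small heat shock protein genes that were listed by name, *Hspb1*, *Hspb2*, *Hspb3*, *Hspb6*, *Hspb7*, *Hspb8* and *Cryab*, out of 55538 features in a table of gene counts of single cardiomyocytes (CMs). All 7 had counts in every set of cells, although *Hspb3* had a single count in one of them. The remaining genes of the family that were looked up, *Cryaa*, *Hspb9* and *Odf1*, had 0 counts in all 8 sets, which allows up to 3 counts a set.

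Small heat shock proteins share a conserved alpha-crystallin domain, assemble into oligomers of changing size, and hold unfolding proteins in a soluble state without using ATP until other chaperones refold or remove them. In striated muscle they are abundant at the Z-disc and along desmin and actin filaments. HSPB8 and HSPB6 bind the co-chaperone BAG3, which links them to HSPA8 (Hsc70) and to the autophagy of damaged Z-disc proteins such as filamin C, and proline 209 of BAG3 lies in one of the short motifs that these small heat shock proteins bind.

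The study measured CMs of mice that carry human BAG3 with the P209L substitution fused to eGFP. A total of 234 hand-picked CMs of 5 mice were sequenced by SMART-seq2, which reads whole transcripts and carries no molecular identifiers. The transgene was inserted at the Rosa26 locus behind the ubiquitous CAG promoter and a floxed stop cassette, in a line derived from 1 embryonic stem cell clone, and PGK-Cre, active from the germ line on, removed the cassette. Apart from mouse M72, whose age is not given, the mice were 2 weeks old. CMs were taken from ventricles, and the mice had a mixed background of CD-1, C57BL/6Ncr and 129S6/SvEvTac.

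The homozygous group (strain PGKcre:BAG3P209L_homo) consisted of mouse M25 with 21 bright and 18 dim CMs and mouse M116 with 59 bright and 50 dim CMs, where bright and dim are the labels of the eGFP fluorescence of the picked cell. Homozygous here means 2 floxed alleles, of which 1 or both had lost the stop cassette. The control group consisted of mouse M26 with 24 CMs and mouse M73 with 9 CMs. The titles of its samples call both mice wt, and the labels give C57BL/6 as its strain. The methods define controls more widely, as siblings that were wild type or carried PGK-Cre or the floxed transgene alone. The heterozygous mouse M72 (strain PGKcre:BAG3P209L_het) gave 27 bright and 26 dim CMs. Mice M25 and M26 were on plate GL-9122b, M73 and M72 on plate GL9989-1, and M116 on plates GL9989-2 and GL9989-3.

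The summed counts of a set of cells ranged from 4096609 (M73) to 40508124 (bright CMs of M116), and 15 of the 234 cells had fewer than 1000 genes detected. Human BAG3 (hBAG) was at 0.408 and 0.488 CPM (counts per 1000000 counts of the library) in the control CMs, at 294 and 233 CPM in the bright and at 10.7 and 99.6 CPM in the dim homozygous CMs (M25 and M116 in this order). In mouse M72 it went against the labels, with 105 CPM in the CMs labelled bright and 251.2 CPM in those labelled dim, so no direction is drawn here from the brightness labels of M72. CM markers were high in nearly every cell (median 80527 CPM for 9 genes), but 2 of the 219 cells with at least 1000 genes held under 10000 CPM of them, both in the bright CMs of M25. A total of 28 wells held over 1000 CPM of fibroblast, endothelial or immune markers, among them 1 bright well of M25 with 50104 CPM of 7 fibroblast genes and, of the 7 small heat shock genes, counts on *Cryab* alone (4.71 CPM).

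The positions of the genes are given on the GENCODE M21 annotation (GRCm38), since the sources used here do not name the build of the counts. *Hspb8* lies on chromosome 5 (116408491 to 116422864, minus strand) and *Hspb1* on the same chromosome (135887919 to 135889563, plus strand). *Hspb6* lies on chromosome 7 (30552178 to 30555443, plus strand), *Hspb7* on chromosome 4 (141420779 to 141425311, plus strand) and *Hspb3* on chromosome 13 (113662896 to 113663676, minus strand). *Hspb2* (50751078 to 50752354, minus strand) and *Cryab* (50751325 to 50756636, plus strand) lie head to head on chromosome 9, and their annotated exons share 252 bases. Reads in these bases are uncertain, because the sources used here do not state whether counting used the strand. *Hspb6* shares 122 exon bases with *Proser3* and 3 with *Lin37*, both on the opposite strand, and 77 with the microRNA gene *Gm38670*. *Hspb1*, *Hspb3*, *Hspb7* and *Hspb8* share no exon bases with another gene.

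The RefSeq promoter table of GRCm38.p6 held windows for 5 of the 7 genes, from 250 bases before to 50 bases after the start, and none for *Cryab* and *Hspb2*. They are shown because the family divides into genes that heat shock factors can induce and genes held on by the muscle program. Below are the 250 bases before the start of *Hspb8* (the partner of BAG3, chr5:116422865-116423114, minus strand), of *Hspb1* (higher on plate GL-9122b than on the others, chr5:135887669-135887918, plus strand) and of *Hspb7* (higher in the heterozygous mouse than in all other sets, chr4:141420529-141420778, plus strand), 5′ to 3′. Capitals mark the heat shock factor core GAANNTTC or TTCNNGAA, each of which reads the same on both strands.
Hspb8: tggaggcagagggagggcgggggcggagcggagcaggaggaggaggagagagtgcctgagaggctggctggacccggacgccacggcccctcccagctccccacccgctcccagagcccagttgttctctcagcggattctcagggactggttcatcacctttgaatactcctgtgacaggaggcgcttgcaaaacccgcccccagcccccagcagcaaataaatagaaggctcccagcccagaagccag
Hspb1: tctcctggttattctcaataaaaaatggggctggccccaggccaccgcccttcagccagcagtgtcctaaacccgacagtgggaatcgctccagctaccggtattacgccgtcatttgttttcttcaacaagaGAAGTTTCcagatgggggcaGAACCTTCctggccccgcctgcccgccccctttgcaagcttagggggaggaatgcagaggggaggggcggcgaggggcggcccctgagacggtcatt
Hspb7: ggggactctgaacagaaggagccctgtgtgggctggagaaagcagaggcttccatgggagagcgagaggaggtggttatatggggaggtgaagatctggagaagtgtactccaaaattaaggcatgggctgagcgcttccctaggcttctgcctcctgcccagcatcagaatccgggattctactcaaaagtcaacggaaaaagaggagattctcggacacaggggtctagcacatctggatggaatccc
*Hspb1* holds 2 cores, 117 and 97 bases before its start. Over the full windows, *Hspb8* has 1 core 2 bases past its start, *Hspb3* has 1 core 224 bases before its start, 1 of the 2 windows of *Hspb6* has 1 core 120 bases before its start, and *Hspb7* has none. A core of either kind is found in 15.1% of the 32851 promoter windows of the table. A match of these letters is no evidence that a factor binds there.

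Per length of exon, *Cryab* (alpha-B-crystallin, which protects desmin and titin) was the highest of the 7 genes in all 8 sets, and *Hspb3* the lowest. Divided by the exon bases that no other gene shares, *Cryab* ranged from 665 to 1200.4 CPM per kb with a median of 735. *Hspb6* followed with 173 to 371 CPM per kb (median 284), *Hspb1* with 142 to 425 (median 179.5) and *Hspb7* with 91.2 to 266 (median 128). *Hspb8* ranged from 87.9 to 125 CPM per kb (median 108), *Hspb2* from 73.8 to 106 (median 89.9) and *Hspb3* from 0.313 to 30.3 (median 23.2). *Cryab* and *Hspb3* did not overlap with any other gene, while the ranges of neighbours from *Hspb6* down to *Hspb2* overlapped. With the length of the principal transcript instead, the order of the medians was the same.

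**Figure D1:**
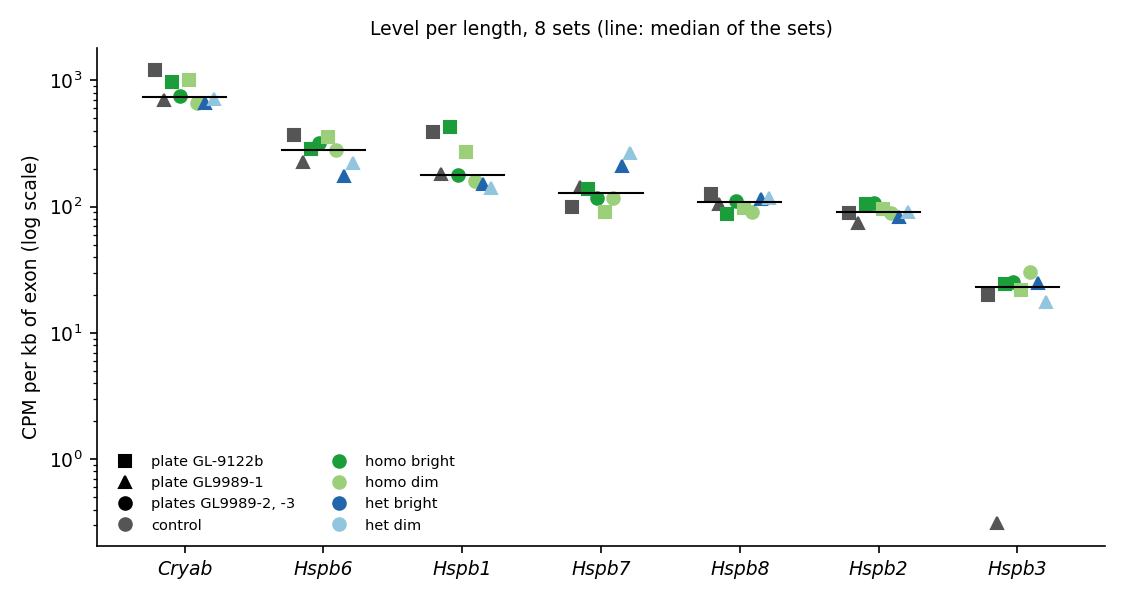
Level per length of the 7 genes on a log axis (CPM per kb of exon not shared with another gene). Each marker is 1 of 8 sets of CMs, colored by group and shaped by plate, and lines are medians over the sets. *Cryab* lies above all others (665 to 1200.4 CPM per kb), and the single low marker of *Hspb3* (0.313 CPM per kb) is control mouse M73.

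Most CMs expressed most of the family. Of the 219 cells with at least 1000 genes, 113 had counts on all 7 genes, 96 on 6, and 10 on fewer. *Cryab* had counts in 219 cells, *Hspb6* in 217, *Hspb7* in 216, *Hspb1* in 215, *Hspb8* in 211 and *Hspb2* in 209. *Hspb3* had counts in 53.0% of the 219 cells. Per length, *Cryab* was the leading gene in 209 of the 219 cells, *Hspb1* and *Hspb6* in 4 each, and *Hspb7* and *Hspb8* in 1 each.

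*Hspb8* encodes HSPB8, the small heat shock protein that works in a complex with BAG3. It was at 244 CPM in control M26 and 204 CPM in control M73. Bright homozygous CMs had 171 CPM (M25) and 217 CPM (M116), and dim ones 190.1 CPM (M25) and 178 CPM (M116). The heterozygous mouse M72 had 225 and 230.3 CPM in its CMs labelled bright and dim. Its 8 levels spanned 1.42-fold on this scale and 1.64-fold after TMM normalization (*Hspb2* 1.44-fold and 1.23-fold), with control M26 highest on both scales. In single cells with at least 1000 genes, medians per set lay between 139.6 CPM (bright, M25) and 235 CPM (control M26), while cells of 1 set ranged as widely as from 0 to 1024 CPM (bright, M116).

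*Hspb6* encodes HSPB6 (Hsp20), a partner of BAG3 that is phosphorylated by protein kinase A in CMs. Control CMs had 778 CPM (M26) and 471 CPM (M73), bright CMs 596 CPM (M25) and 673 CPM (M116), and dim CMs 749.7 CPM (M25) and 593 CPM (M116). The heterozygous CMs of M72 had 364 CPM (bright) and 466 CPM (dim), the lowest of the 8 sets. On this scale the homozygous sets lay between the 2 controls. After TMM normalization within each comparison, bright M25 (551 against 563 normalized CPM) and dim M116 (521 against 548) were below control M73 as well.

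*Cryab* and *Hspb1* were both higher on plate GL-9122b than on the others. *Cryab* had 1473 CPM in control M26 and 864 CPM in control M73, 1184 and 927 CPM in bright and 1246 and 819 CPM in dim CMs (M25 and M116), and 816 and 877 CPM in the bright and dim CMs of M72. *Hspb1*, which encodes HSP27, a stress-inducible chaperone of actin filaments, had 403 CPM (M26) and 186 CPM (M73) in controls, 439 and 184 CPM in bright and 281 and 166 CPM in dim CMs (M25 and M116), and 156 and 146 CPM in M72. For both genes the 3 sets of plate GL-9122b (M26 and the bright and dim CMs of M25) were above the other 5, as were 3.05% of 16615 genes, and also after TMM normalization, as were 3.29% of these genes. With TMM, none of the 7 was below the other 5 in all 3 sets (1.88% of genes). Averaged over mice, *Hspb1* was 2.23-fold and *Cryab* 1.56-fold higher in the 2 mice of that plate than in the other 3. In single cells, the median of *Hspb1* was 272 to 373 CPM in the sets of plate GL-9122b and 112 to 176 CPM in the others. The sets of that plate were also deeper, with medians of 923016 to 1053323.5 counts a cell against 498819 to 735315, and their mice differ, so plate, depth and mouse cannot be told apart.

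*Hspb7* encodes the cardiovascular HSPB7, which binds cardiac actin filaments and filamin C. It was at 275 CPM (M26) and 398 CPM (M73) in controls, at 382 and 322 CPM in bright and 252 and 325 CPM in dim CMs (M25 and M116). The heterozygous mouse M72 had the highest levels, with 577 CPM in its CMs labelled bright and 735 CPM in those labelled dim.

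*Hspb2* and *Hspb3* encode proteins that form a mixed oligomer in muscle. *Hspb2* had 51.5 and 43.0 CPM in controls (M26 and M73), 61.2 and 61.9 CPM in bright, 56.3 and 52.0 CPM in dim (M25 and M116), and 48.6 and 52.7 CPM in M72. *Hspb3* had 15.7 CPM in control M26 and 0.244 CPM in control M73, where 1 count was found (95% Poisson interval 0.00618 to 1.36 CPM, counting error only). It had 19.2 and 19.9 CPM in bright, 17.0 and 23.7 CPM in dim (M25 and M116), and 19.3 and 13.7 CPM in M72. Control M73 thus stood apart from the other 7 sets, which lay within 13.7 and 23.7 CPM.

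**Figure D2:**
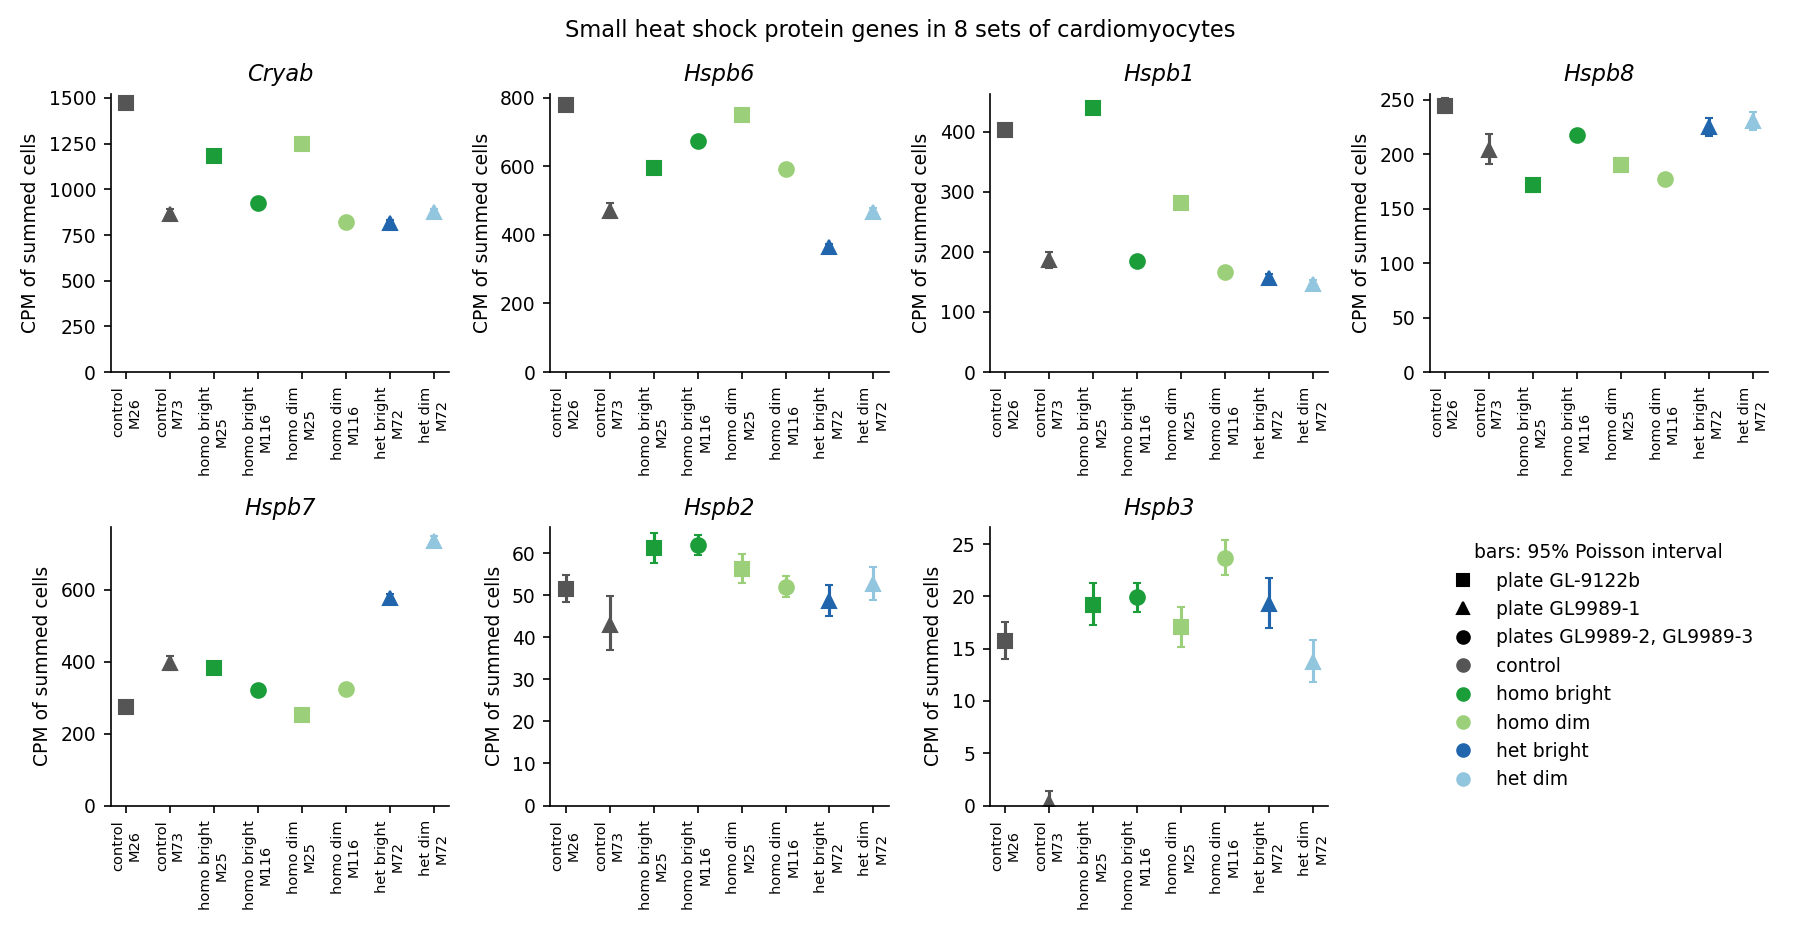
Level of each gene (CPM of the summed cells, linear axis from 0) in the 8 sets, with 95% Poisson intervals that cover counting error alone. Colors give the group and shapes the plate. *Hspb1* and *Cryab* are highest in the 3 sets of plate GL-9122b, *Hspb7* is highest in mouse M72 (577 and 735 CPM), and *Hspb3* is near 0 in control M73.

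*Hspb3* had counts in part of the cells of every set. Among cells with at least 1000 genes, it had counts in 10 of 20 cells of control M26, 13 of 20 and 29 of 56 bright cells, 11 of 18 and 26 of 48 dim cells (M25 and M116), and 11 of 24 and 15 of 25 cells of M72. In control M73 it had counts in 1 of 8 cells (12.5%, exact binomial interval 0.316 to 52.7%). At a fixed depth of 100000 counts a cell, the expected share of cells with a count was 2.90% in M73 and 39.0 to 55.9% in the other 7 sets. The highest single value, 235 CPM (bright, M116), was 1 count in a cell of 4259 counts, and the next highest was 151 CPM with 78 counts (M72, labelled bright). The intervals of M73 and M26 (27.2 to 72.8%) overlapped.

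**Figure D3:**
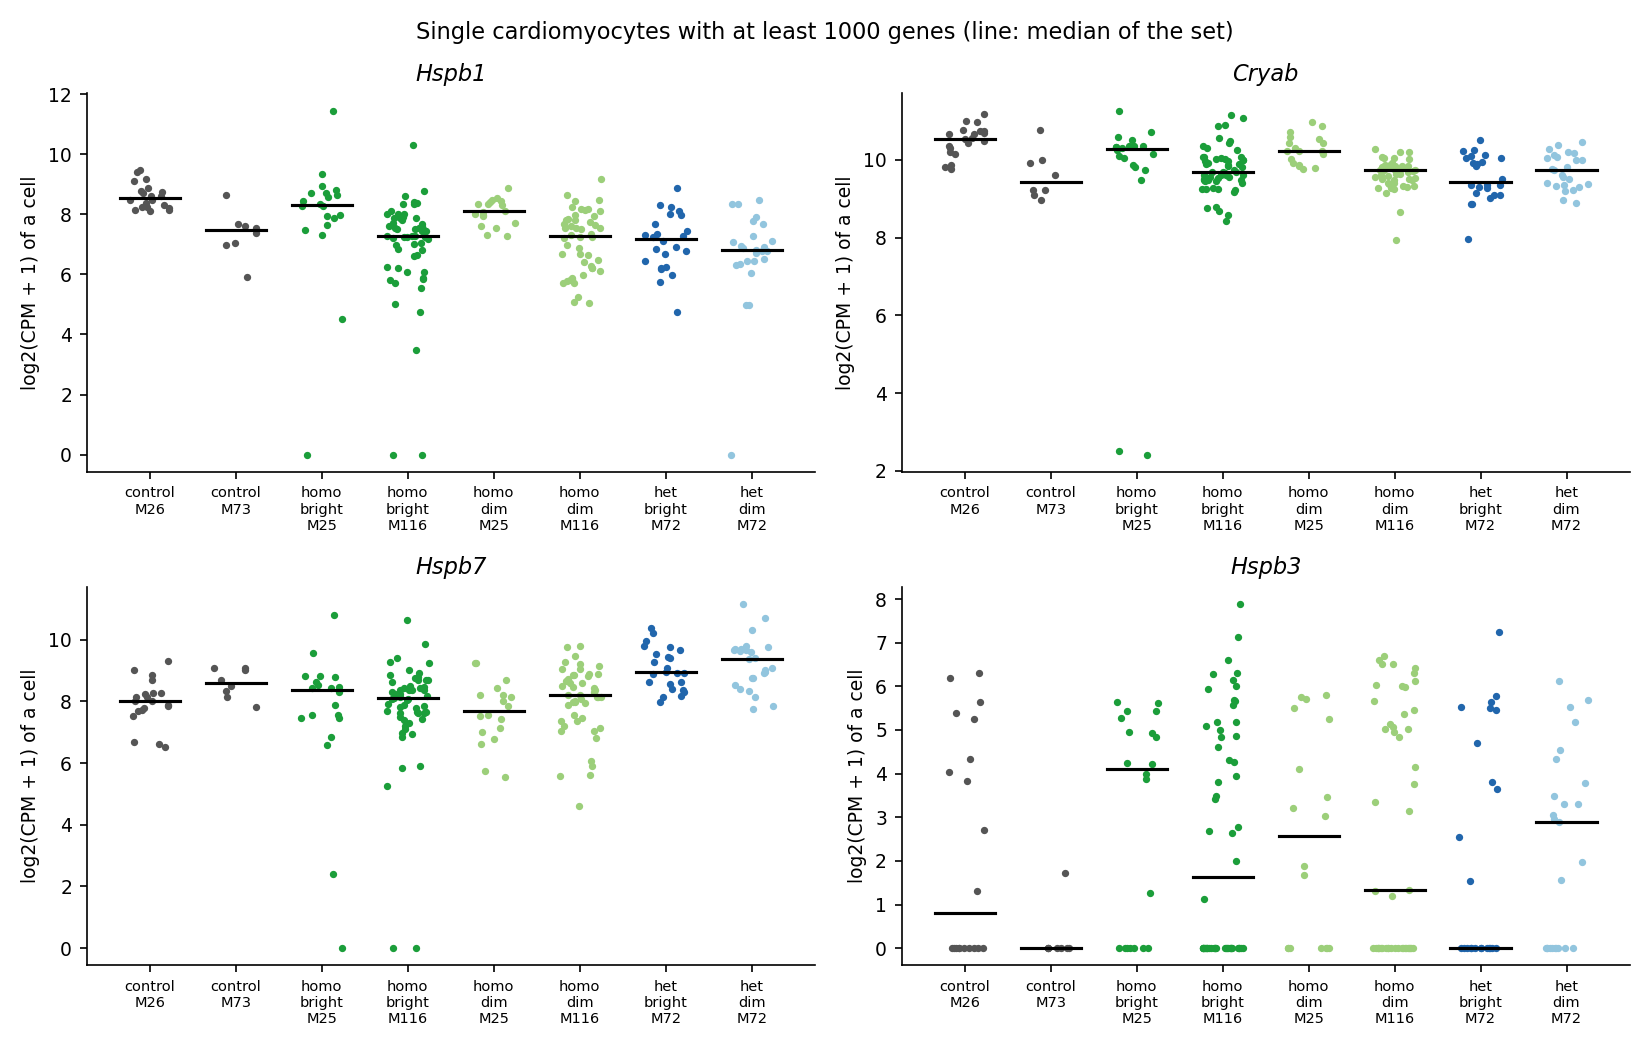
*Hspb1*, *Cryab*, *Hspb7* and *Hspb3* in single CMs with at least 1000 genes, as log2(CPM + 1), by set. Each point is a cell and each line the median of the set. *Hspb3* is detected in 53.0% of the cells, and the 2 lowest cells of *Cryab* are the bright cells of M25 with few CM markers.

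The first comparison asks whether the levels of the 7 genes differ between bright homozygous CMs and control CMs, with the mouse as the replicate (2 against 2). The study states that its mice, males and females, were matched for age and neither by sex nor by litter. None of the 7 genes passed the test (edgeR quasi-likelihood test, Benjamini-Hochberg adjusted p under 0.05 over 12203 genes), against 0.0164% of all genes tested, which were the 2 transgene features. None of the 7 had an unadjusted p under 0.05, as 6.55% of all genes did, and DESeq2 called none of the 7 and 0.754% of all genes. The smallest p was that of *Hspb8*, with a log2 fold change of -0.53 ± 0.29 (SE, adjusted p = 0.876). *Cryab* followed with -0.44 ± 0.32 (adjusted p = 0.925). *Hspb6* was at -0.28 ± 0.30, *Hspb7* at -0.27 ± 0.35, *Hspb1* at -0.19 ± 0.53, *Hspb2* at 0.06 ± 0.41 and *Hspb3* at 1.03 ± 1.46.

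After TMM normalization, both bright mice were below both controls in *Hspb8* (158 and 189 against 257 and 244 normalized CPM), as in 14.8% of all genes, and above both controls in *Hspb3* (17.7 and 17.3 against 16.5 and 0.292), as in 24.3% of all genes. Scaled by library size alone, the values of *Hspb8* overlapped, and *Hspb2* (61.2 and 61.9 against 51.5 and 43.0 CPM) and *Hspb3* were above both controls, as were 33.7% of all genes. Of the 7 genes 2 had a log2 fold change above 0, as did 54.1% of all genes, and 4 of 7 did with each cell given equal weight. The median of the 7 was -0.27, beside 0.11 for all genes tested, and with library size alone these were 0.07 and 0.41. With that scaling *Hspb1* (0.08), *Hspb6* (0.02) and *Hspb7* (0.07) were above 0 and the other 4 kept their sign. With each cell given equal weight the medians were 0.18 for the 7 and 0.32 for all genes. That weighting took every well, also those with fewer than 1000 genes (5 of 33 control, 4 of 80 bright and 2 of 68 dim CMs). The part of these wells in the equal-weight values was not tested. Mice were also paired by plate series, M25 with M26 (both on GL-9122b) and M116 with M73 (GL9989 plates). The pair of M116 and M73 shares no plate, so plate is not held constant in it. After TMM normalization, bright M25 minus control M26 gave -0.71 and bright M116 minus control M73 gave -0.31 for *Hspb8*. The same pairs gave -0.51 and -0.30 for *Cryab*, -0.08 and -0.41 for *Hspb1* and 0.05 and 0.12 for *Hspb2*. *Hspb7* (0.28 and -0.71) and *Hspb6* (-0.58 and 0.11) differed in sign, and *Hspb3* was at 0.09 in the former pair, with 1 count in the control of the latter. So 3 of the 7 genes were below 0 in both pairs, as were 18.5% of 16615 genes. Scaled by library size alone, 0 of the 7 were (10.4% of these genes), since *Hspb8* and *Cryab* were higher in bright M116 than in control M73 and *Hspb1* higher in bright M25 than in control M26. Without the bright M25 cell of highest *Hspb1*, the TMM difference in the M25 pair was -0.51 for *Hspb1* and 0.01 for *Hspb7*. The median fitted log2 fold change of the 7 genes was then -0.41 in place of -0.27. With all cells, the median difference of all genes was 0.00 in the pair of M25 and M26 and 0.63 in that of M116 and M73. In the same libraries, fibroblast markers summed to 2537 CPM in the bright CMs of M25 against 77.9 CPM in those of M116 and 33.2 to 142 CPM in controls, and the part of other cells in the values was not tested. Without the 28 wells rich in such markers, *Hspb8* was at -0.48 and none of the 7 genes passed.

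The second comparison sets dim homozygous CMs against the same control CMs. Again 0 of 7 genes passed the edgeR test, as did 0% of all 12195 genes. At an unadjusted p under 0.05 there were 6.22% of all genes and none of the 7, and with DESeq2 0.435% of all genes and none of the 7. The log2 fold changes were -0.66 ± 0.46 for *Hspb1*, -0.57 ± 0.31 for *Hspb8*, -0.53 ± 0.36 for *Hspb7*, -0.45 ± 0.38 for *Cryab*, -0.17 ± 0.34 for *Hspb6*, -0.09 ± 0.43 for *Hspb2* and 1.08 ± 1.42 for *Hspb3*. Both dim mice were below both controls in *Hspb8* (177 and 156 against 258 and 238 normalized CPM) and in *Hspb7* (235 and 286 against 290.5 and 463), as in 14.2% of all genes, and above both controls in none of the 7 (23.8% of all genes). Scaled by library size alone, *Hspb8* was below both controls (8.09% of all genes), *Hspb7* overlapped, and *Hspb2* (56.3 and 52.0 against 51.5 and 43.0 CPM) and *Hspb3* (17.0 and 23.7 against 15.7 and 0.244 CPM) were above both controls (32.5% of all genes). Of the 7 genes 1 was above 0, as were 54.2% of all genes, and 5 of 7 were with each cell given equal weight, wells with fewer than 1000 genes included. Their median was -0.45, beside 0.10 for all genes. With library size alone these were -0.18 and 0.38, and *Hspb2* at 0.20 and *Hspb6* at 0.10 were above 0. With each cell given equal weight the medians were 0.58 for the 7 and 0.39 for all genes.

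The same pairs of mice were set side by side for dim CMs, where again M25 and M26 share a plate and M116 and M73 do not. After TMM normalization, dim M25 minus control M26 and dim M116 minus control M73 gave -0.70 and -0.54 for *Hspb1*, -0.54 and -0.58 for *Hspb8*, -0.42 and -0.45 for *Cryab* and -0.30 and -0.67 for *Hspb7*. They gave -0.23 and -0.04 for *Hspb6* and -0.05 and -0.10 for *Hspb2*, so that 6 of the 7 genes were below 0 in both pairs, as were 18.7% of 16615 genes. Scaled by library size alone, 4 of the 7 were (*Hspb1*, *Hspb7*, *Hspb8* and *Cryab*), as were 10.8% of these genes. *Hspb3* was at -0.06 in the former pair, and in the latter its control held 1 count. The median of all genes was 0.00 and 0.60.

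Behind the large error of *Hspb3* in both comparisons are 2 controls that differ, M26 at 15.7 CPM and M73 with 1 count. With M73 as the lone control, *Hspb3* passed the test in dim CMs (log2 fold change 5.99, adjusted p = 0.0415 with edgeR, the lone sample assumed to vary like the others), as did 5.89% of all genes in that fit, and with M26 as the lone control the value was 0.14. A fold against a single count depends on the prior count that the fit adds and is no bound. The expression of *Hspb3* in the homozygous mice (17.0 to 23.7 CPM) was close to that in control M26 (15.7 CPM) and in M72 (13.7 and 19.3 CPM). Immune markers summed to 59.8 and 54.1 CPM in the dim CMs (M25 and M116) against 1.69 and 3.17 CPM in controls (M26 and M73). In the dim fit 7 of 9 CM markers were below 0 (median -0.64). Above 0 were 5 of 6 endothelial (median 0.79), 6 of 7 fibroblast, 2 of 3 mural and 5 of 5 immune markers tested. The part of other cells in the values of the 7 genes was not tested.

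The third comparison sets bright against dim CMs of the same homozygous mice, where hBAG was at 294 against 10.7 CPM within M25 and at 233 against 99.6 CPM within M116. No small heat shock gene passed the edgeR test, nor did any of the 13439 genes (0%). At an unadjusted p under 0.05 there were 4.12% of all genes and none of the 7, and with DESeq2 0.677% and none of the 7. *Hspb1* had the largest log2 fold change, 0.46 ± 0.51, with 0.62 within M25 and 0.13 within M116. *Hspb7* was at 0.26 ± 0.23 (0.58 within M25 and -0.04 within M116), *Hspb2* at 0.15 ± 0.24, *Hspb8* at 0.04 ± 0.21, *Cryab* at 0.00 ± 0.30, *Hspb3* at -0.08 ± 0.38 and *Hspb6* at -0.12 ± 0.21. One bright cell of M25 held 2791 CPM of *Hspb1* and 1808 CPM of *Hspb7*, where the next highest values of that set were 652 and 760 CPM. Without this cell, which was singled out after its values were seen, bright M25 was at 315 CPM for *Hspb1* and 307 CPM for *Hspb7*, the differences within M25 were 0.19 and 0.31, and the fitted log2 fold changes were 0.17 and 0.13. Both bright sets were above both dim sets in *Hspb2* (62.8 and 59.2 against 58.6 and 51.1 normalized CPM), as in 15.1% of all genes (16.2% with library size alone, where *Hspb2* did so too), and below both in none of the 7 (16.0% of all genes). Of the 7 genes 5 were above 0, as were 49.5% of all genes, and 1 of 7 was with each cell given equal weight. Their median was 0.04, and that of all genes -0.01. With each cell given equal weight these medians were -0.48 and -0.06. In the edgeR fit 5 of 5 immune markers tested and 6 of 6 endothelial markers were below 0 (4 of each at an unadjusted p under 0.05). Below 0 were also 3 of 3 mural markers tested (2 at that p) and 9 of 9 CM markers (0 at that p, median -0.08). The 7 of 7 fibroblast markers were above 0 through M25 (their sum was 2537 CPM in bright against 66.2 CPM in dim CMs of M25, and 77.9 against 238 CPM in M116). The part of other cells in the values of the 7 genes was not tested in this comparison either. An adjusted p that misses the threshold does not show that the levels were equal.

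**Figure D4:**
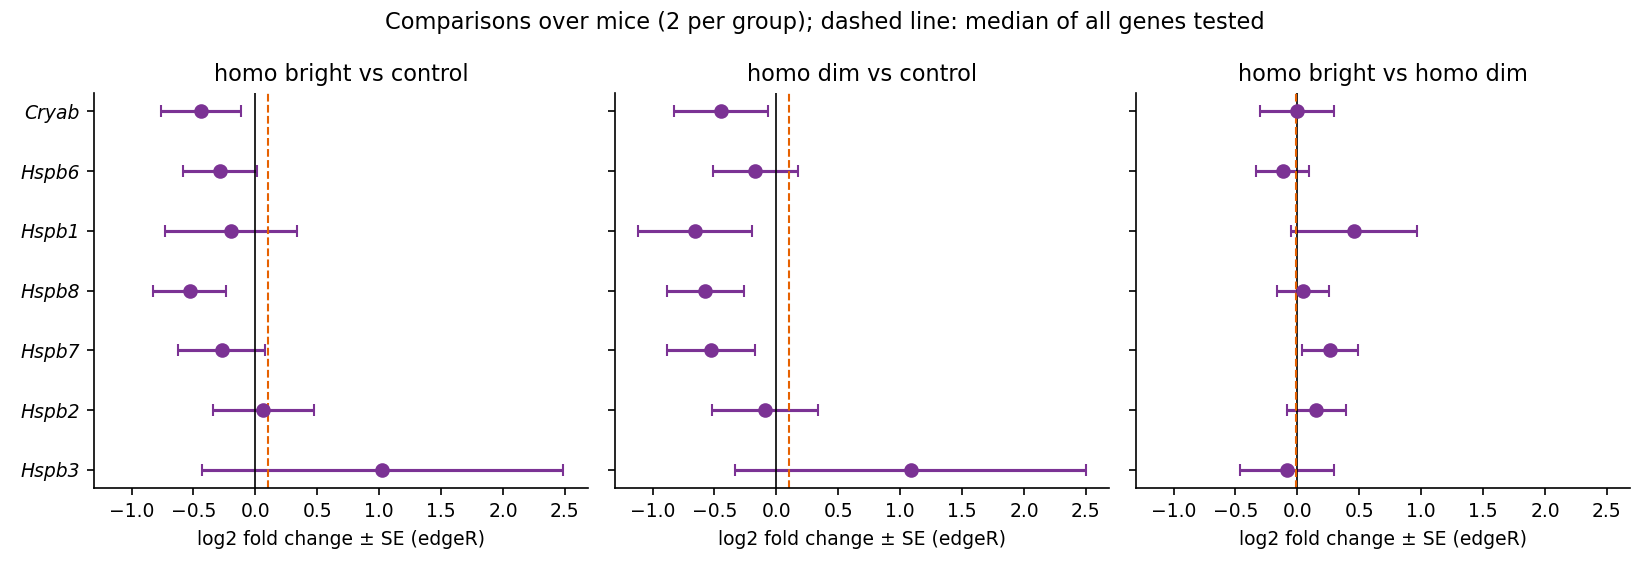
Log2 fold changes of the 7 genes with their standard errors (edgeR, 2 mice a group) in the 3 comparisons. The solid line is 0 and the dashed line the median of all genes tested. No gene passed an adjusted p of 0.05, and *Hspb3* (1.03 ± 1.46 and 1.08 ± 1.42) has the widest error against controls.

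The levels of the single heterozygous mouse are given with counting intervals alone, and its difference from the other genotypes was not tested. *Hspb7* was at 577 CPM (95% Poisson interval 565 to 590.2) and 735 CPM (721 to 750.03) in the CMs labelled bright and dim, above the other 6 sets (252 to 398 CPM). After TMM normalization the 2 sets of M72 lay above the other 6 in *Hspb7*, as in 5.33% of 16615 genes, and below them in *Hspb6*, as in 2.97%. With library size alone *Hspb7* was above (4.81% of genes) and both *Hspb6* and *Hspb1* were below the other 6 (2.84% of genes). Control M73 on the same plate had the next highest level of *Hspb7*, so that all 3 sets of plate GL9989-1 lay above the other 5, as in 2.76% of genes (2.00% with library size alone). After TMM normalization none of the 7 lay below in all 3 (4.95% of genes), while with library size alone *Hspb6* did (6.15% of genes). The median share of mitochondrial counts was 22.0% in M73 and 16.9 and 17.8% in M72, against 9.30 to 11.5% elsewhere, and its part in these values was not tested. *Hspb6* was at 364 CPM (354 to 374) and 466 CPM (454 to 477), and *Hspb8*, *Hspb2* and *Hspb3* of M72 lay within the range of the other sets. Genotype, mouse, age and plate cannot be told apart here.

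Shares of each gene in the summed counts of all 7 do not depend on the scaling of a library. *Cryab* took 34.8 to 45.5% of these counts, *Hspb6* 16.5 to 28.0%, *Hspb7* 8.48 to 29.2%, *Hspb1* 5.80 to 15.4%, *Hspb8* 6.01 to 10.2%, *Hspb2* 1.59 to 2.57% and *Hspb3* 0.0113 to 1.10%. *Hspb7* took 26.2 and 29.2% in M72, more than in the other 6 sets (8.48 to 18.4%). The share of *Hspb6* was 27.2 ± 0.47% (SD, n = 2 mice) in dim CMs and 22.9 ± 1.61% in controls (two-sided exact permutation test, p = 0.33, the smallest that 2 against 2 mice can give). *Hspb2* took 2.36 ± 0.30% in bright CMs and 1.79 ± 0.28% in controls (exact permutation p = 0.33). The same p was found for *Hspb2* in dim CMs (2.21 ± 0.28%) and for *Hspb3* in bright (0.75 ± 0.11%) and dim CMs (0.85 ± 0.35%) against controls (0.25 ± 0.34%). With shares averaged over cells, *Hspb2* had an exact permutation p of 0.67 in bright and in dim CMs against controls. No share passed after adjustment over the 7 genes in any of the 3 comparisons (exact permutation, adjusted p 0.778 to 1), and 2 against 2 mice cannot reach 0.05.

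Within a set, cells that were high in 1 of the genes were only weakly high in the others. The Spearman rho between 2 genes across cells, averaged over the sets with equal weight, ranged from -0.07 (*Hspb3* and *Hspb8*) to 0.30 (*Hspb6* and *Cryab*), with a median of 0.15 over the 21 pairs. As a description of the same cells, whose pairs share each cell's depth, 5302396 pairs of 3257 widely detected genes had a median of 0.04 and a 95th percentile of 0.18. *Hspb6* and *Cryab* were above 0 in 8 of 8 sets (0.04 to 0.68). *Hspb7* reached 0.25 with both *Hspb2* and *Hspb6*, and 0.20 with *Hspb8*. *Hspb8* and *Cryab*, at -0.04, ranged from -0.57 to 0.66 among the sets. The median over pairs was 0.43 in the bright CMs of M25 and from 0.00 to 0.27 in the other 7 sets, and without the 2 cells that held few CM markers it was 0.21 in the former, inside that range.

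Among the transgenic sets, *Hspb7* was the member whose level across cells went most with that of hBAG. Its rho with hBAG was 0.45 and 0.13 in bright and 0.09 and 0.30 in dim CMs (M25 and M116) and 0.22 and 0.36 in the bright and dim CMs of M72, with a mean of 0.26. The median of 3257 genes was 0.04, and 13 of them (0.399%) had a higher mean than *Hspb7*, which was singled out after the values were seen. *Hspb8*, the partner of BAG3, was at 0.00 (-0.30 to 0.38), *Cryab* at -0.05, *Hspb6* at 0.09 and *Hspb1* at 0.14. With the mouse's own *Bag3*, the mean rho was -0.04 to 0.13 for the 7 genes. Without the 2 bright M25 cells that held few CM markers, *Hspb7* and hBAG were at 0.63 in that set, with a mean of 0.29. The median cell held 0.84 CPM of hBAG in dim CMs of M25 and 3.90 CPM in the CMs of M72 labelled bright. The values of *Hspb7* with hBAG in these 2 sets thus rest on part of their cells.

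**Figure D5:**
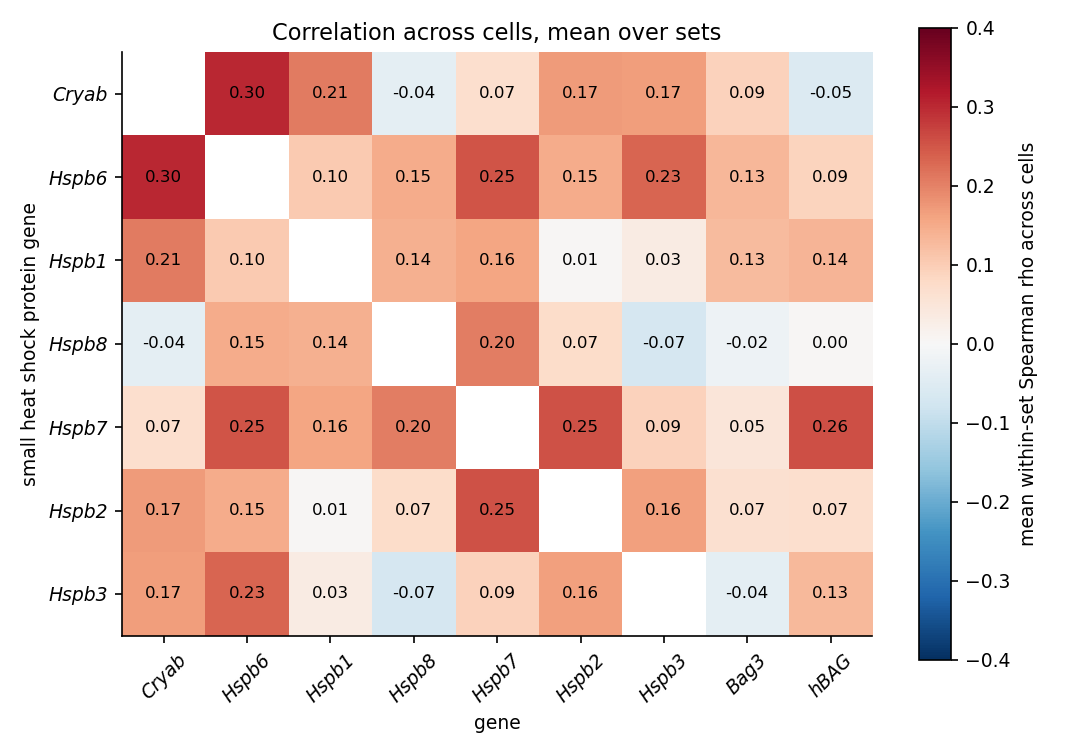
Mean Spearman rho across cells of each pair of the 7 genes, and of each with *Bag3* and hBAG. Means are over 8 sets, over 7 sets for pairs with *Hspb3* (not in control M73), and over the 6 transgenic sets for hBAG. The highest values are 0.30 (*Hspb6* and *Cryab*) and 0.26 (*Hspb7* and hBAG).

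The genes whose pattern across cells was most like that of a member, by the mean rho over the 8 sets (for *Hspb3* including control M73, where 1 of 8 cells had a count and which its correlations with the other members leave out), were *Actc1* (cardiac alpha-actin, 0.46), *Ldha* (0.36) and *Ccn1* (0.35) for *Hspb6*, and *Fxyd1* (phospholemman, 0.41), *Ankrd1* (0.39) and *Mrpl33* (0.34) for *Cryab*. *Actc1* (0.35) also led the list of *Hspb7*, before *Dhrs4* (0.32) and *Ackr3* (0.32). *Hspb1* went most with *Ywhah* (0.34), *Atf4* (0.33) and *Rps2* (0.32), and *Hspb8* with *4930402H24Rik* (0.34), *Cox8a* (0.30) and *Plin3* (0.29). *Hspb2* went most with *Wapl*, *Pdk2* and *Denr* (0.28 each), and *Hspb3* with *Hnrnpr* (0.32), *Psmd11* (0.32) and *Mrpl17* (0.30). The median over all genes compared lay between 0.01 and 0.06 for each member.

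In the genes around the family, no call was made in bright against control CMs apart from the transgene. Of 8 genes of BAG3-mediated selective autophagy, 0 passed the edgeR test, and the lowest p-values were those of the mouse's own *Bag3* (-0.52 ± 0.29) and of *Synpo2* (-0.55 ± 0.37), which takes part in autophagosome formation. Of 11 tested genes of the heat shock response, among them the factors *Hsf1* and *Hsf2*, 0 passed, with the lowest p-values for *Hspe1* (the mitochondrial chaperonin HSP10, -0.74 ± 0.33) and *Hsf1* (-0.94 ± 0.83). Of 5 clients of small heat shock proteins, 0 passed, with the lowest p-values for *Ttn* (-0.70 ± 0.37) and *Vim* (0.90 ± 0.67). None of the genes of these lists passed in dim CMs against controls or in bright against dim CMs, with edgeR's adjusted p. Of 6 immediate-early genes tested, 6 had values above 0 in bright CMs and 0 passed, with *Atf3* at 3.54 ± 0.90 and *Fos* at 2.67 ± 1.20. The 2 transgene features passed (edgeR adjusted p = 0.0123 for both), with 8 and 2 counts of hBAG and 1 and 0 counts of BAG-eGFP in the controls M26 and M73.

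Markers of cell types gave 0 genes past the adjusted threshold of edgeR in each list and comparison. In bright against control CMs, 9 of 9 CM markers were below 0 (*Ryr2* at -1.32 ± 0.40 and *Tnni3* at -0.87 ± 0.29), 7 of 7 fibroblast markers above 0 (*Col1a2* at 4.11 ± 1.37 and *Col1a1* at 4.47 ± 1.88, with 344 and 236 normalized CPM in bright M25 against 13.7 and 9.89 in bright M116 and 11.97 and 10.1 in control M26), and 5 of 6 endothelial markers below 0 (*Fabp4* at -1.25 ± 0.34 and *Kdr* at -1.75 ± 0.74). Of 3 mural markers tested 2 were below 0 (*Rgs5* at -1.80 ± 0.50 and *Pdgfrb* at -2.23 ± 1.33), and of 6 immune markers *Lyz2* alone was tested (-5.30 ± 1.78).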

How the data were processed

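The authors picked single CMs by hand after Langendorff dissociation, made SMART-seq2 libraries, mapped the reads with STAR against mouse sequence supplemented by human BAG3 and eGFP, and deposited whole-number counts of reads per gene without normalization. The build, the annotation and the strand column are not given in the sources used here, and the tools named by the submitters' processing notes are bcl2fastq and STAR. Genes are named by symbol.

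From these counts CPM values were computed, cells were summed within mouse and brightness label, and a comparison was fitted on its own 4 sums with filterByExpr, TMM, glmQLFit and glmQLFTest of edgeR 4.0.16 (R 4.3.3), with Benjamini-Hochberg adjustment over all genes and a threshold of 0.05. The fit of bright against control CMs was also run on simulated counts, with the same dispersion for all genes and no plate effect. That run does not show how the fits act on data such as these. Mice M25 and M116 each gave both bright and dim CMs, which pairs these sums by animal. As a check, M25 minus M116 in bright cells was set against M25 minus M116 in dim cells over 13439 genes, which are not independent (Pearson 0.075, Spearman 0.10). Levels per length used GENCODE M21 exons. Shares of cells have exact binomial and counts exact Poisson intervals at the 95% level, and both cover counting error only.

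The 7 genes and the gene lists were chosen with earlier results of these data known. All 7 members are named, and from each other list the genes past the threshold or otherwise the 2 with the smallest p in bright against control CMs. Likeness was taken over genes with a count in at least 50% of the cells of every set. The alternatives were DESeq2 1.42.0, library size alone, no count filter, only cells of 1000 genes or more, limma 3.58.1 on mean log2(CPM + 1) values with each cell equal, all 8 sums in 1 fit, a Wilcoxon test over cells, the plate series or the mouse as a block, bright and dim cells summed, each sum left out, a partial correlation on the number of genes, shares within cells, and a fixed depth. Leaving out the 28 wells rich in other markers, the 2 cells low in CM markers and the bright M25 cell highest in *Hspb1* were chosen after seeing the data.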

Additional observations from a re-analysis of the deposited data

How the results depend on the processing

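The count of small heat shock genes called was 0 in all 3 comparisons and under every alternative but one, namely 1 (*Hspb3*) for dim CMs against the lone control M73 (range 0 to 1 when a sum was left out, and 0 to 0 in the other comparisons). With the mouse as a replicate block, bright against dim CMs gave 0 calls as well, and the pairing changed no call. Over all genes, the edgeR counts were 2, 0 and 0 (bright against control, dim against control, bright against dim). They were 92, 53 and 91 with DESeq2, 163, 58 and 217 without a filter on counts, 4, 1 and 2 with each cell equal, 5, 1 and 0 with all sums in 1 fit, and 10 and 12 with the plate series as a block. Leaving out a sum gave 0 to 41 (0 without M26, 15 without bright M25, 41 without bright M116), 3 to 827 (827 without M26, 3 without M73, 10 without dim M25, 8 without dim M116) and 0 to 74 (74 without bright M116).

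These log2 fold changes took the other sign under an alternative, with no member called in any of those fits and the cause not tested. Equal weight of cells here counts every well, also those with fewer than 1000 genes. In bright against control CMs, library size alone gave 0.082 for *Hspb1*, 0.024 for *Hspb6* and 0.068 for *Hspb7*, equal weight of cells gave 0.19 for *Hspb6* and 0.18 for *Cryab*, and summing bright and dim cells gave -0.016 for *Hspb2*. In dim against control CMs, library size gave 0.20 for *Hspb2* and 0.10 for *Hspb6*, equal weight of cells gave 0.47 for *Hspb1*, 1.45 for *Hspb2*, 0.98 for *Hspb6* and 0.58 for *Cryab*, and the test over cells gave 0.094 for *Hspb2*. In bright against dim CMs, equal weight gave -0.50 for *Hspb1*, -0.45 for *Hspb2*, 0.054 for *Hspb3*, -0.48 for *Hspb7*, -0.68 for *Hspb8* and -0.40 for *Cryab*, the test over cells gave -0.016 for *Hspb7*, leaving out marker-rich wells gave -0.055 for *Cryab*, and leaving out the bright M25 cell highest in *Hspb1* gave -0.011 for *Cryab*.

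Leaving out a sum, with the lone sample assumed to vary like the others, changed signs too. Against control, bright CMs gave -0.97 to 0.37 for *Hspb1* (0.37 without M26, 0.32 without M116), -0.53 to 0.030 for *Hspb6* (without M26) and -0.57 to 0.13 for *Hspb7* (without M73), and dim CMs gave -0.43 to 0.16 for *Hspb6* (0.16 without M26, 0.02 without M116). *Hspb3*, not reversed, spanned 0.08 to 5.90 and 0.14 to 5.99, the higher values without M26 and the lower without M73. Without M73 and M26, *Cryab* was at -0.71 and -0.10 in bright and at -0.73 and -0.09 in dim CMs (-0.78 without dim M25), and in dim CMs *Hspb1* was at -1.06 and -0.08 (-1.09 without dim M25) and *Hspb7* at -0.15 and -0.82. Bright against dim CMs gave -0.37 to 0.98 for *Hspb1* (lowest without bright M25), -0.27 to 0.14 for *Hspb3* (highest without dim M116), -0.30 to 0.11 for *Hspb6* (highest without dim M25), -0.081 to 0.16 for *Hspb8* (lowest without bright M116, -0.033 without dim M116) and -0.29 to 0.39 for *Cryab* (lowest without dim M116, -0.24 without bright M25). In M72, leaving out marker-rich wells moved levels past their counting intervals to 171 (*Hspb1*), 331 (*Hspb6*), 598 (*Hspb7*) and 865 CPM (*Cryab*) in bright and to 154 (*Hspb1*), 789 (*Hspb7*) and 241 CPM (*Hspb8*) in dim CMs. With 2 mice a group and 9 cells in M73, differences of the size of the standard errors were not detectable here.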
